A study of Mus musculus with 35 samples.

Results

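Livers of old and young mice were compared 38 h after partial hepatectomy (PH), an operation that takes out 70% of the liver by mass, after which the remnant regrows. The comparison used 3 arrays of old PH livers and 3 arrays of young PH livers collected at 38 h, which are 6 of the 35 arrays of the study, chosen by their titles and with no sham livers among them. All animals were male mice of the hybrid strain CB6F1, with no transgene or deletion named in the labels, and were operated on under avertin followed by isoflurane. Old mice were 25 to 27 months of age and came from the National Institute on Aging, and young mice were 5 to 6 months of age and came from Jackson Laboratories, so age and supplier cannot be told apart. The other arrays, used here for the spread between replicates and for 3 side comparisons, were untreated livers (0 h), livers 24 h and 48 h after PH (3 arrays for each age) and sham-operated livers (1 or 2 arrays for each age and time). The labels do not say that the replicates of a group were separate animals. The p-values therefore measure only the spread between arrays of a group, pooled over all 35 arrays, which may be technical.

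RNA was hybridised to Affymetrix moe430_2 arrays, and each gene was represented by its probe set with the highest mean signal, which gave 18193 genes. Values are log2 RMA signals, so a difference of 1 is a 2-fold difference, and levels of different genes are not compared with each other. A gene is called higher or lower in old livers where limma's test, fitted to all 35 arrays, gave a Benjamini-Hochberg adjusted p under 0.05 over all 18193 genes. Differences are old minus young, with the SE of the fit. The tissue matched its label: albumin (Alb) was between 14.84 and 14.87 on all 6 arrays, and the 17 secreted hepatocyte proteins had a mean level of 14.06 to 14.28 in old and 14.15 to 14.20 in young livers.

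After PH the hepatocytes, which rarely divide in the adult liver, leave quiescence and pass through the cell cycle almost in step. Cyclin D1 drives them through G1. E2F factors, released from retinoblastoma proteins, then switch on cyclin E and the replication genes of S phase, and later factors including MYBL2 and FOXM1, bound with the MuvB complex at other promoter elements, switch on the genes of mitosis. Regeneration is known to be slower in old animals.

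The 6 arrays were not equally alike, and the counts below depend on that. Across genes, old replicates 1 and 2 correlated with r = 0.993, whereas old replicate 3 correlated with them with r = 0.945 and 0.947. The SD of its difference from them was 0.647 and 0.637 log2, the widest of all pairs within groups. The SE of the fit pools the spread of all groups, so it can be too small for the old 38 h group. The array most like old replicate 3 was replicate 1 of the old livers 24 h after PH (r = 0.993). Young replicates 1 and 2 were the most alike of the 29 pairs of arrays within groups (r = 0.997, SD of their difference 0.156 log2, 2 genes more than 1 log2 apart). Young replicate 3 correlated with them with r = 0.987 and 0.988, and was most like replicate 2 of the young livers 48 h after PH (r = 0.992). Counts are therefore given with and without old replicate 3, and the other arrays that moved a count are named beside it.

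**Figure D1:**
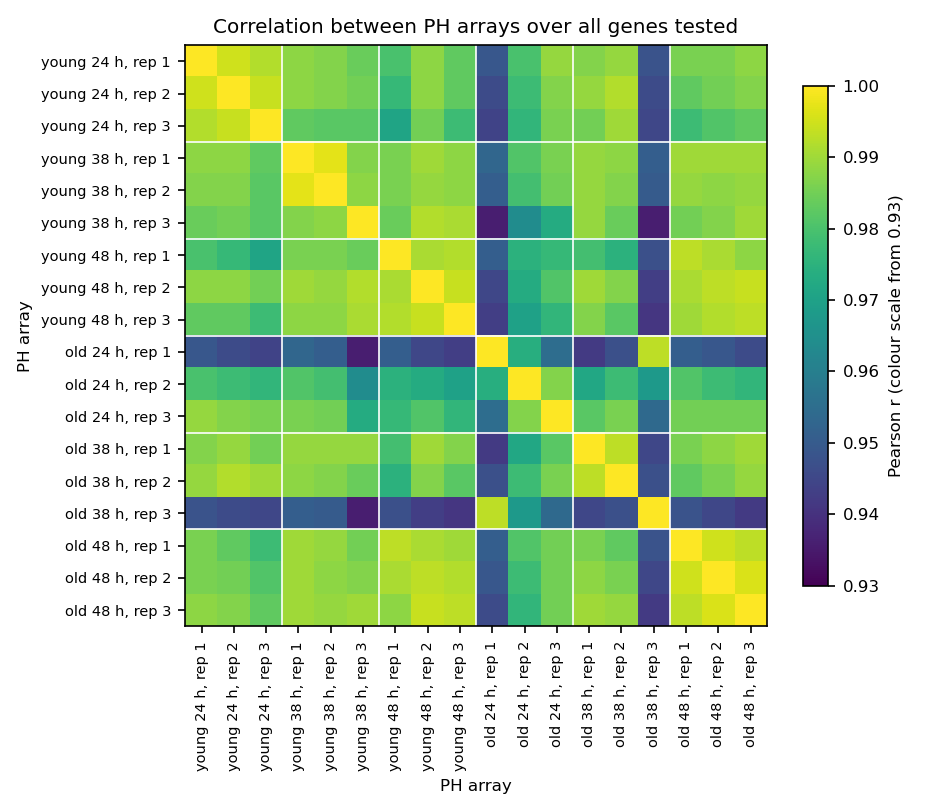
Pearson correlation across all genes tested (colour, scale from 0.93 to 1) between the 18 PH arrays, ordered by age, time after PH and replicate on both axes. Old 38 h replicate 3 and old 24 h replicate 1 have low correlations with most other arrays and a high one with each other (r = 0.993).

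At 38 h after PH, genes of DNA replication and of mitosis were lower in old than in young livers, and the falls were larger than the rises. Of 18193 genes, 366 (2.01%) differed, 274 of them lower (1.51%) and 92 higher (0.506%) in old livers, and 3135 had an unadjusted p under 0.05. The 274 lower genes had a median difference of -0.81 and the 92 higher genes of 0.41, beside a median of 0.04 over all genes. A difference of more than 1 log2 was found in 101 of the lower genes and in 4 of the higher genes. The 3 old arrays lay wholly below the 3 young arrays for 234 of the 274 lower genes, and wholly above them for 91 of the 92 higher genes, while over all genes 6.52% lay wholly below and 9.93% wholly above. These genes were chosen by the test on the same arrays, so their medians and lack of overlap are no further support.

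The size of the count rested on old replicate 3 and on young replicate 3. Old replicate 3 was the lowest old array for 232 of the 274 lower genes, and old replicate 1 the highest for 199. Without old replicate 3, 49 genes passed (0.269%; 17 higher, 0.0934%, and 32 lower, 0.176%), of which 45 were among the 366, and 2345 had an unadjusted p under 0.05. Without it the 274 lower genes had a median difference of -0.62 and the 92 higher genes of 0.37; the remaining 5 arrays had also served to choose these genes, so the sign they keep is no sign of stability. The count was 88 without young replicate 3, 222 without young replicate 2, 678 without old replicate 1 and 565 without old replicate 2. In a fit to the 6 arrays alone limma called 0 genes, with a smallest adjusted p of 0.603 and 1366 genes at an unadjusted p under 0.05. An exact permutation test of 3 against 3 arrays cannot give a two-sided p below 0.1 for a single gene.

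**Figure D2:**
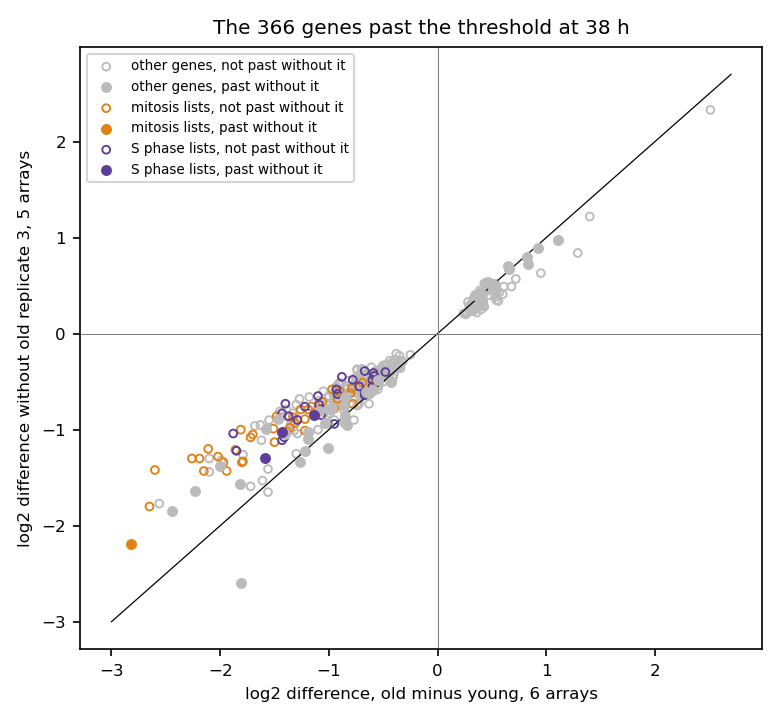
Log2 difference, old minus young, of the 366 genes past the threshold with all 6 arrays (x axis) and with old replicate 3 left out (y axis, 5 arrays), with the line of equality. Purple marks S phase lists, orange mitosis lists and grey other genes, and filled points also pass without old replicate 3; the lower genes have a median of -0.81 on the x axis and -0.62 on the y axis.

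Genes listed for replication licensing, the loading of the MCM helicase on origins before S phase, had lower RNA signals in old livers. The loading itself was not measured. Of 19 measured members of this list, 10 were lower (52.6%, against 1.51% of all genes) and 0 higher. The median was -0.93, and 16 of 19 had a negative sign. Cdc6, which loads the helicase, had levels of 6.5, 7.19 and 4.95 in old and 8.14, 8.21 and 7.85 in young livers. The groups did not overlap, and the lowest value was that of old replicate 3 (-1.85 ± 0.38, adjusted p = 0.0118). The helicase subunit gene Mcm2 was at 9.13, 9.96 and 8.54 in old livers and within 10.60 to 10.66 in young livers. All old arrays were well below the narrow young range (-1.41 ± 0.26, adjusted p = 0.00551). Mcm4 (-1.43 ± 0.33) and Mcm7 (-1.40 ± 0.34) were lower too. Without old replicate 3 the median was -0.64 and 0 of 19 members passed. Over all genes 0.269% then passed, so nothing is read from this 0.

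The genes of the replication fork and of nucleotide supply showed the largest share of lower members among the cell cycle lists. Of 30 members 20 were lower (66.7%, against 1.51% of all genes) and 0 higher. All 30 had a negative sign, and the median was -0.90. Prim1, a primase subunit, was at 10.39, 9.61 and 7.48 in old and 10.83, 10.72 and 11.57 in young livers. Its old arrays were spread over 2.91 log2, with replicate 1 close to the young arrays (-1.88 ± 0.44, adjusted p = 0.0241). Rfc4, a subunit of the clamp loader, was at 8.34, 8.0 and 7.28 against 9.13, 9.25 and 10.01. Its old arrays lay closer together, and the difference of -1.59 ± 0.27 (adjusted p = 0.00381) was also called without old replicate 3 (-1.29, adjusted p = 0.0369). Uhrf1, which couples DNA methylation to replication, was lower with the same order of arrays (-1.43 ± 0.25, and -1.02 without old replicate 3, adjusted p = 0.0333). Dut, the dUTPase, and Pcna, the sliding clamp, were lower by 1.43 ± 0.26 and 1.07 ± 0.23 respectively. Pcna levels were 12.72, 11.96 and 11.50 in old and 13.02, 13.04 and 13.35 in young livers, without overlap. Rrm2, the small subunit of ribonucleotide reductase, did not pass (-1.33 ± 0.53, adjusted p = 0.200), although its old arrays (11.30, 9.93 and 10.37) lay below its young arrays (11.68 to 12.19). Without old replicate 3 the median of this list was -0.59 and all 30 signs were negative. Then 3 members were lower, when 0.176% of all genes were lower.

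Together these S phase genes had 30 of 49 members lower (61.2%, against 1.51% of all genes) with all arrays. Without old replicate 3 the number was 3 of 49, when 0.176% of all genes were lower. Without young replicate 3 it was 6 of 49, when 88 of all 18193 genes were called in either direction.

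G1/S regulators, the cyclins, kinases, inhibitors and E2F factors that decide entry into S phase, were less uniform. Of 27 members 7 were lower (25.9%, against 1.51% of all genes), 0 higher, and the median was -0.37. Cyclin E2 (Ccne2), which activates CDK2 at the start of S phase, showed the largest fall of this list. Its levels were 6.75, 6.59 and 4.89 in old and 8.65, 8.33 and 8.58 in young livers. The groups lay far apart. The difference was -2.44 ± 0.35, a 5.43-fold lower signal (adjusted p = 0.000858), and it was called without old replicate 3 (-1.85, adjusted p = 0.00403). E2f1, the activating E2F factor, was at 8.82, 8.72 and 8.11 in old and 9.24, 9.53 and 9.92 in young livers. It was lower by 1.01 ± 0.16 (adjusted p = 0.00169), also without old replicate 3 (-0.79, adjusted p = 0.0176). Rbl1, a retinoblastoma relative (-1.63 ± 0.40), and Cdkn2c, an inhibitor of CDK4 and CDK6 (-1.62 ± 0.38), were lower, but for Cdkn2c old replicate 1 (10.68) lay within the young range. Cyclin D1 (Ccnd1) was at 11.60, 11.16 and 8.80 in old and 12.05, 11.99 and 11.80 in young livers. The arrays did not overlap, but the difference of -1.43 ± 0.48 did not pass (adjusted p = 0.127) and was -0.57 without old replicate 3. The CDK inhibitor Cdkn1a (p21) had old levels of 10.97, 10.04 and 12.90 on both sides of the young levels of 11.76, 11.75 and 11.46, and did not pass (-0.35 ± 0.41, and -1.15 without old replicate 3, adjusted p = 0.0772).

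Genes of mitosis were lower in old livers too. Of 110 measured members of 5 mitosis lists, 39 were lower (35.5%, against 1.51% of all genes) and 0 higher. Of these members 95 had a negative sign, and the median was -0.69. The count was 1 without old replicate 3, when 0.176% of all genes were lower. It was 2 without young replicate 3 and 68 without old replicate 1, when 88 and 678 of all genes were called in either direction. In the list of mitotic entry, 8 of 21 were lower (median -0.95). Cdk1, the mitotic kinase, was at 11.33, 9.47 and 8.19 in old and 11.27, 11.36 and 12.43 in young livers. Old replicate 1 thus lay within the young range while old replicate 3 lay among the untreated old livers at 7.77, 8.42 and 7.92 (-2.02 ± 0.45, adjusted p = 0.0185). Survivin (Birc5) had the widest span, with 10.23, 7.85 and 5.50 in old against 9.88, 9.89 and 11.62 in young livers (-2.60 ± 0.65, adjusted p = 0.0356). Aurkb, the kinase of the same chromosomal passenger complex, was lower without overlap (-1.80 ± 0.37), and its partner Cdca8 with overlap (-1.72 ± 0.42).

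At the kinetochore, where chromosomes attach to the spindle, 11 of 25 genes were lower (44.0%, median -0.79). The share over all genes, 1.51% lower, stands beside each list of this paragraph. Nuf2, an NDC80 complex subunit, had the largest fall among the genes that passed, with levels of 7.38, 6.03 and 4.82 in old and 8.17, 8.73 and 9.79 in young livers. The groups did not overlap (-2.82 ± 0.39, 7.07-fold lower, adjusted p = 0.000656), and Nuf2 was the 1 mitosis member that also passed without old replicate 3 (-2.19, adjusted p = 0.00331). Its complex partners Spc24 (-1.86 ± 0.38) and Spc25 (-1.81 ± 0.42) and the checkpoint protein gene Zwilch (-1.97 ± 0.37) were lower. Of 27 genes of mitotic kinesins and the spindle, 11 were lower (median -0.90), among them Ect2, which starts the cleavage furrow (-2.15 ± 0.43), the furrow protein gene Anln (-1.94 ± 0.38), the abscission gene Cep55 (-1.79 ± 0.37) and the motor gene Kif20b (-1.50 ± 0.35). Of 18 genes of condensins, cohesins and topoisomerase, 8 were lower (median -0.87). Esco2, which acetylates cohesin, was at 8.02, 5.95 and 4.45 against 8.25, 8.23 and 9.89 (-2.65 ± 0.53, adjusted p = 0.00991). Top2a, topoisomerase II alpha, was at 9.69, 8.26 and 6.32 against 10.04, 9.99 and 10.80 (-2.19 ± 0.51, adjusted p = 0.0248). Smc2, a condensin subunit gene, was at 9.51, 8.39 and 6.23 against 9.91, 9.84 and 10.69 (-2.11 ± 0.46, adjusted p = 0.0183). For all 3 genes, old replicate 1 was close to the lowest young array and old replicate 3 far below. The proliferation marker Mki67, at 10.00, 8.04 and 6.14 against 10.03, 9.54 and 11.38, overlapped (-2.26 ± 0.59, adjusted p = 0.0457). In the list of mitotic exit and the anaphase-promoting complex, 1 of 19 was lower (5.26%) and the median was -0.19. It was Fbxo5, an inhibitor of that complex (-0.92 ± 0.22). Of these 19 genes, 13 had a negative sign, and 7 were lower at an unadjusted p under 0.05 by limma. Many members are subunits of that complex, so the median is not a measure of mitotic exit alone. Cyclin A2 (Ccna2, -1.16 ± 0.36, adjusted p = 0.0893) and the mitotic transcription factor gene Foxm1 (-0.38 ± 0.13, adjusted p = 0.121) did not pass.

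DNA repair genes, many of which act at replication forks, had 8 of 28 members lower (28.6%, against 1.51% of all genes) and 0 higher (median -0.51). Chek1, the kinase that guards stalled forks, was at 7.68, 7.43 and 5.83 in old and 8.41, 8.32 and 8.60 in young livers. It was lower by 1.47 ± 0.29 (adjusted p = 0.00913), and also called without old replicate 3 (-0.89, adjusted p = 0.0374). Topbp1 (-1.35 ± 0.26) and Brca1 (-1.27 ± 0.30) were lower without overlap. Of 4 replication-dependent histone genes and their variants measured, 0 passed (H2ax -1.07 ± 0.29, adjusted p = 0.0565; H2az1 -0.96 ± 0.28, adjusted p = 0.0684). Of 21 p53 target genes, 0 passed and the median was -0.21. Over all genes 2.01% passed, so nothing is read from these counts of 0.

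Each list was also scored on each array by its mean level above untreated livers of the same age. For replication licensing the score was 1.26, 0.98 and -0.05 in old and 1.56, 1.58 and 1.87 in young livers, and for the fork and nucleotide list 1.08, 0.58 and 0.01 against 1.42, 1.39 and 1.83. On both S phase lists every old array was below every young array. For mitotic entry the scores were 1.53, 0.65 and 0.10 in old and 1.45, 1.36 and 2.21 in young livers, so that old replicate 1 was between the young arrays while old replicates 2 and 3 were below them. Old replicate 1 also lay within the young range on the kinesin and mitotic exit lists, and below it on the kinetochore (1.31 against 1.36 to 2.07) and condensin lists (1.15 against 1.21 to 1.90). Old replicate 3 scored between -0.25 and 0.18 on all 9 cell cycle and repair lists plotted, close to untreated old liver. In old livers at 48 h the mitotic entry score had reached 2.02, 2.13 and 1.92, against 2.12, 1.93 and 2.26 in young livers.

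**Figure D3:**
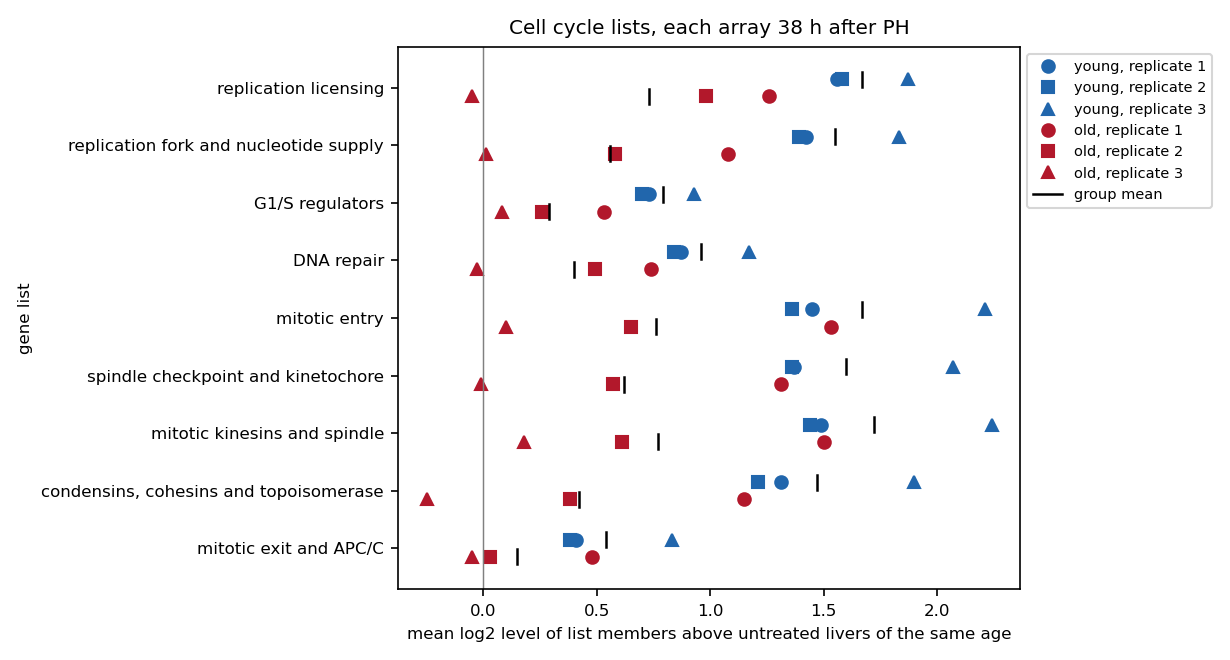
Mean log2 level of the members of 9 gene lists above untreated livers of the same age (x axis) on each array 38 h after PH, with young arrays in blue, old arrays in red, marker shapes for replicates and a bar at each group mean. On the S phase lists no old array reaches a young array; on mitotic entry old replicate 1 (1.53) lies between the young arrays.

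Promoters of 4 lower genes are printed because S phase and mitotic genes are known to use different elements. Each run is the 150 bases before the RefSeq gene start (GRCm38.p6, 5′ to 3′ on the gene's strand), with matches in capitals to an E2F site (TTTCGCGC, TTTGGCGC, TTTCCCGC or TTTGCCGC), a CHR element (TTTGAA) or a CCAAT box (CCAAT), on either strand. Cdc6 lies at chr11:98908001-98908150 on the plus strand, Cdk1 at chr10:69352913-69353062, Top2a at chr11:99024190-99024339 and Mki67 at chr7:135716380-135716529, all 3 on the minus strand.
Cdc6: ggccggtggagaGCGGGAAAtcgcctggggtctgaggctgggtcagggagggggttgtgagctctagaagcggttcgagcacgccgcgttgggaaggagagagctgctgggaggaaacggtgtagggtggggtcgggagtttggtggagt
Cdk1: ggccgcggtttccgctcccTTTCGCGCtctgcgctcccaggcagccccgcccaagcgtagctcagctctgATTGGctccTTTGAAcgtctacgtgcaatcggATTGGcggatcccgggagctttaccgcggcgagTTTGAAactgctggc
Top2a: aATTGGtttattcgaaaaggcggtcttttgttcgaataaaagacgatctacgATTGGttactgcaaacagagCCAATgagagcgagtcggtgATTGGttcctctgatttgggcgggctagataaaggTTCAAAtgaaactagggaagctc
Mki67: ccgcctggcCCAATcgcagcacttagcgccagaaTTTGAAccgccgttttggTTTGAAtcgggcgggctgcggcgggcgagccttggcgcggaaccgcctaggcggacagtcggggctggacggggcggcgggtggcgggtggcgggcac

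Counted from the base before the start, Cdc6 holds an E2F match at -138 on the opposite strand and no CHR match in this window. Cdk1 holds an E2F match at -131, CHR matches at -71 and -15 and CCAAT matches at -80 and -48. Top2a holds a CHR match at -23 and 4 CCAAT matches, and Mki67 holds CHR matches at -116 and -98. Over windows of 300 bases (250 before and 50 after the start), found for 14452 of the genes tested and 229 of the 274 lower genes, an E2F match was in 15.3% of the lower genes and 3.81% of all, a CHR match in 23.6% and 15.7%, and a CCAAT match in 53.3% and 42.0%. Of the 77 higher genes with a window, 1.3%, 13% and 41.6% held them. In the S phase lists 39.0% held an E2F match and 22.0% a CHR match, while in the mitosis lists 8.99% and 57.3% did. Of all 32851 windows in the table, 2.26% held an E2F, 17.9% a CHR and 37.4% a CCAAT match. These are letter matches and show no binding.

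The genes higher in old livers formed no cell cycle group, and most differences were small. Cidea, a lipid droplet protein that enlarges droplets, rose furthest, with levels of 9.62, 9.31 and 9.99 in old and 7.53, 7.57 and 6.31 in young livers. Every old array was far above every young array (2.51 ± 0.50, 5.68-fold, adjusted p = 0.00999), although it missed the threshold without old replicate 3 (2.33, adjusted p = 0.0694). Gpx3, the secreted glutathione peroxidase, was at 9.73, 10.62 and 11.54 in old and within 9.32 to 9.35 in young livers, so nearly all of the spread lay in the old group (1.29 ± 0.31, adjusted p = 0.0269, and 0.84 without old replicate 3, adjusted p = 0.190). Wfdc2, a secreted protease inhibitor, was higher by 1.11 ± 0.16 (adjusted p = 0.000720), at 9.19, 9.63 and 9.81 against 8.35, 8.54 and 8.42. Hgfac, the protease that activates hepatocyte growth factor, was at 11.81, 12.14 and 12.04 in old and 11.21, 11.22 and 11.11 in young livers. Both groups were tight, and the difference of 0.82 ± 0.11 (1.76-fold, adjusted p = 0.000656) was nearly the same without old replicate 3 (0.80, adjusted p = 0.00468). Dntt, the template-independent DNA polymerase of lymphocytes (0.92 ± 0.17), Pnldc1, a nuclease of small RNA maturation (0.83 ± 0.14), the protocadherin gene Pcdh1 (0.66 ± 0.11) and Hapln4 (0.65 ± 0.11) were higher with and without that array. Tns2 (0.95 ± 0.24), 2010320M18Rik (0.72 ± 0.17) and Mysm1, a histone deubiquitinase gene (0.68 ± 0.17), were higher with all arrays only.

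**Figure D4:**
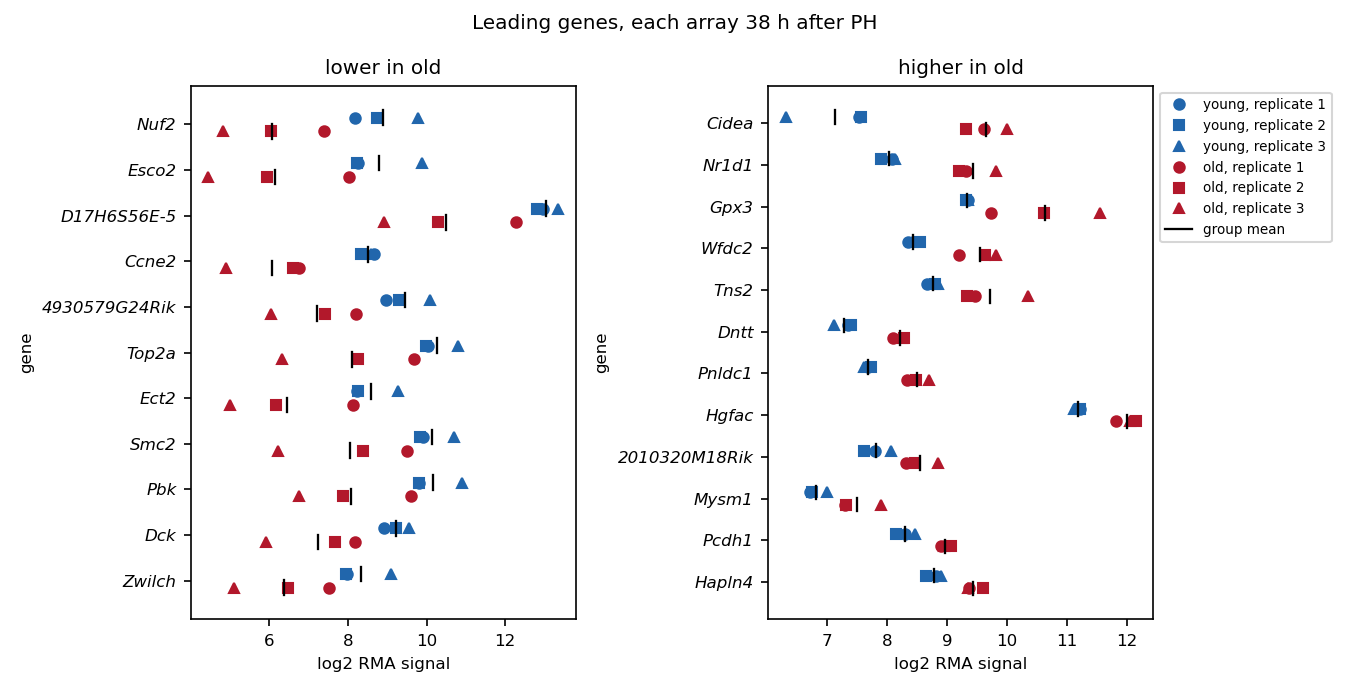
Log2 RMA signal (x axis) on each array 38 h after PH for 11 of the 12 largest falls and for the 12 largest rises whose arrays do not overlap between ages; blue is young, red is old, marker shapes are replicates and bars are group means. Among the falls old replicate 1 mostly lies nearest the young arrays and old replicate 3 farthest; rises such as Hgfac and Pnldc1 have all old arrays close together.

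Among the genes whose arrays did not overlap between ages, the 12 largest falls also held Dck, the deoxycytidine salvage kinase, at 8.17, 7.66 and 5.91 in old and 8.92, 9.22 and 9.55 in young livers (-1.99 ± 0.39, adjusted p = 0.00991). They also held the mitotic kinase gene Pbk (-2.10 ± 0.43), D17H6S56E-5 (-2.56 ± 0.54) and 4930579G24Rik (-2.23 ± 0.34).

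E-cadherin (Cdh1), the adhesion protein of epithelial junctions and a periportal marker of hepatocytes, was a gene in which the difference was larger without old replicate 3. Its levels were 7.28, 7.06 and 9.54 in old and 9.85, 9.88 and 9.57 in young livers. Old replicates 1 and 2 were low and replicate 3 was beside the young arrays (-1.81 ± 0.44, adjusted p = 0.0298, and -2.60 without old replicate 3, adjusted p = 0.000607). This gene has 1 probe set. In old livers it was at 9.96, 10.06 and 10.04 at 24 h and at 9.78, 9.86 and 9.12 at 48 h, so the low values were those of 38 h replicates 1 and 2. Of the 18 periportal genes Cdh1 was the 1 that passed (median -0.40), and of 19 pericentral genes 0 passed (median -0.17, and 0.18 without old replicate 3). Over all genes 2.01% passed.

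Clock genes had 1 of 22 members higher and 1 lower, beside 0.506% and 1.51% of all genes, and nothing is read from these counts. The old arrays lay wholly below the young arrays for 7 of 22 members and wholly above them for 4, against 6.52% and 9.93% of all genes. At an unadjusted p under 0.05 by limma, 4 members were lower and 1 higher. Nr1d1 (REV-ERBα), a repressor of the core clock, was at 9.31, 9.19 and 9.81 in old and 8.08, 7.89 and 8.13 in young livers (1.40 ± 0.27, adjusted p = 0.00908). Lonrf3, a member of that list, had the smallest adjusted p of the named genes, with 8.72, 8.17 and 8.18 in old and 9.55, 9.47 and 9.61 in young livers (-1.19 ± 0.15, adjusted p = 0.000169). In neither gene did the ages overlap, and Lonrf3 was also called without old replicate 3 (-1.10), whereas Nr1d1 missed the threshold (1.22, adjusted p = 0.0759). The clock output gene Dbp was higher in sign in all 3 old arrays (8.91, 9.93 and 9.10, against 8.03, 7.95 and 7.81) but did not pass (1.38 ± 0.70, adjusted p = 0.311). The labels give no clock time of collection, and its part in these values was not tested.

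The age difference of these genes at 38 h was set beside that in other groups of arrays. In the untreated livers 43 genes (0.236%) differed between ages, 0.0605% of all genes being lower and 0.176% higher in old livers. At 24 h after PH 1345 differed (7.39%; 2.87% lower and 4.52% higher), and at 48 h 15 (0.0824%; 0.0275% lower and 0.0550% higher). Of the 274 genes lower at 38 h, 35 were also lower at 24 h, 12.8% of these and 6.69% of the 523 lower at 24 h. Of the 92 higher genes, 11 were also higher at 24 h (12% of these and 1.34% of the 822 higher at 24 h). Old 24 h replicate 1 stood apart from its group (r = 0.974 and 0.955) and was the array most like old 38 h replicate 3 (r = 0.993). Its part in the 24 h values and in the genes shared between 24 h and 38 h was not tested. At 48 h only Mrps6 was lower and only Scarb2 higher again, and in untreated livers 0 were lower and Wfdc2 alone was higher (1.62 ± 0.16), all 3 named after their values were seen. Short of the threshold, untreated Gpx3 was at 9.18, 9.69 and 9.54 in old and 8.4, 8.56 and 8.36 in young livers. Untreated Cidea was at 8.02, 7.49 and 7.2 against 6.98, 6.65 and 6.56. In both genes, and in Dntt, the untreated old arrays lay wholly above the young arrays, and in Nr1d1 and Tns2 wholly below. The 274 lower genes had a median change from untreated liver of 0.92 in young and 0.19 in old livers, and the 92 higher genes of -0.22 and 0.22; these changes share the 38 h arrays with the comparison of ages. Their median age differences were 0.01 and -0.03 in untreated livers, -0.26 and 0.06 at 24 h, and -0.16 and 0.07 at 48 h, beside -0.02, -0.03 and 0.00 over all genes. For the S phase lists the median age difference was 0.03 in untreated livers, -0.57 at 24 h and -0.23 at 48 h, and for the mitosis lists 0.01, -0.26 and -0.08.

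The test of the difference between age differences found fewer genes. The 38 h age difference departed from that of untreated livers for 26 genes (0.143%), from that at 24 h for 67 (0.368%) and from that at 48 h for 0 genes by limma, with 1553 at an unadjusted p under 0.05 and 32 called with array weights. Against untreated livers the departure was -2.87 ± 0.55 for Nuf2 (adjusted p = 0.0417), -2.54 ± 0.50 for Ccne2 (adjusted p = 0.0417) and -1.48 ± 0.21 for Lonrf3 (adjusted p = 0.00382). Ccne2 in young livers was at 5.38, 5.11 and 5.24 untreated, 6.93, 7.53 and 5.95 at 24 h, and 6.07, 5.94 and 6.38 at 48 h, so that 38 h was its highest time. In old livers it was at 4.96, 4.84 and 5.23 at 24 h and 5.68, 6.14 and 6.67 at 48 h, and the age difference at 24 h was -1.79 ± 0.35 (adjusted p = 0.00721). The counts of 26 and 67 depended on single arrays. Without old replicate 3 they were 3 and 1270, the first was 289 without old replicate 1, and the second was 2 without young replicate 1 or 2.

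**Figure D5:**
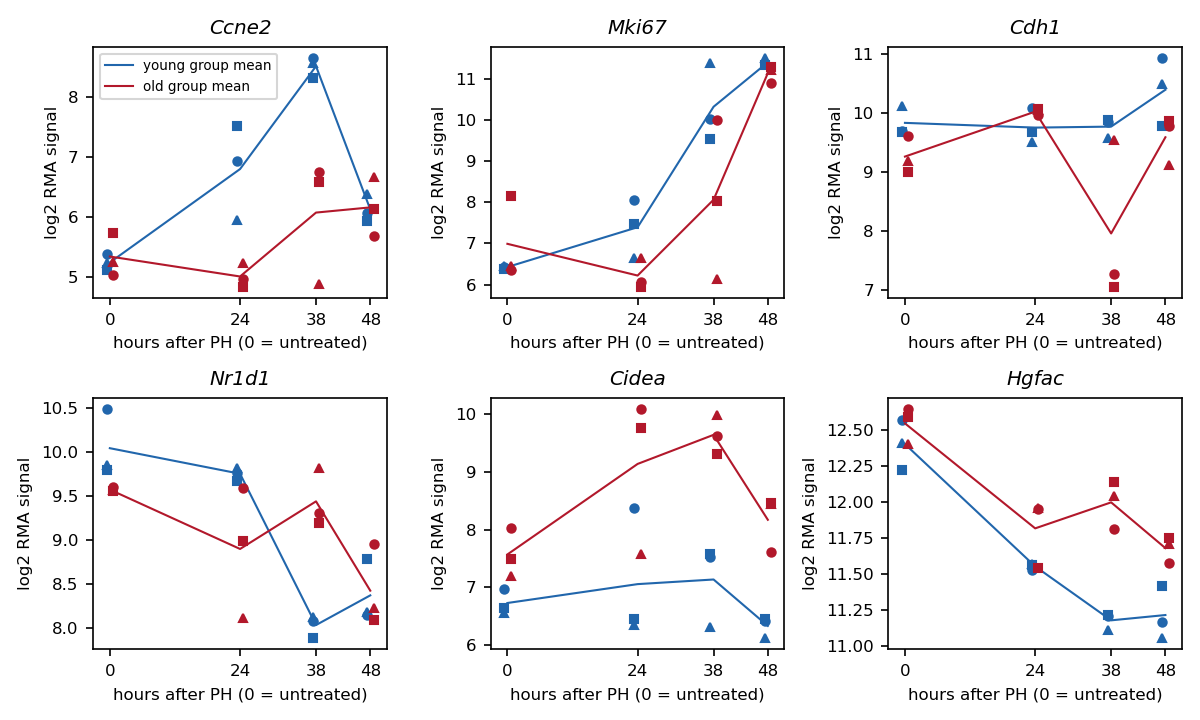
Log2 RMA signal (y axes, each panel on its own scale) of 6 genes against hours after PH, with 0 for untreated livers; points are arrays (circle, square and triangle for replicates 1, 2 and 3), lines join group means, blue is young and red is old. The Ccne2 and Mki67 means are apart at 38 h and close at 48 h, Cdh1 dips in old replicates 1 and 2 at 38 h, and Nr1d1, Cidea and Hgfac are higher in all old than in all young arrays at 38 h.

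Some lists of mature liver function held no called gene, while others, given further below, held 1 or more. With 2.01% called over all genes, lists of this size would hold few calls, so nothing is read from a count of 0. Of 17 secreted hepatocyte proteins, 21 liver-enriched factors (with BRM), 28 acute phase, 17 gluconeogenesis and 22 fatty acid synthesis genes, 0 passed in either direction. Albumin (-0.02 ± 0.05), Hnf4a (0.07 ± 0.08), Cebpb (-0.12 ± 0.12) and Igf1 (0.05 ± 0.08) did not pass. Cebpa, a factor of the quiescent hepatocyte, was at 12.18, 12.65 and 11.79 in old and 11.77, 11.75 and 11.80 in young livers, with old replicate 3 inside the young range (0.43 ± 0.17, adjusted p = 0.183). BRM (Smarca2, -0.83 ± 0.36, adjusted p = 0.232), Afp (-0.61 ± 0.20, adjusted p = 0.122), Cyp7a1, the rate-limiting enzyme of bile acid synthesis (-0.69 ± 0.65), Igfbp1 (-0.23 ± 0.64), Saa2 (-0.34 ± 0.51) and Myc (0.04 ± 0.31) did not pass. The early response list had 0 of 22 members called.

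In 6 metabolic lists 1 member each passed in the direction given, a share of 3.33% to 5.88%. Over all genes 1.51% were lower and 0.506% higher, and nothing is read from counts this small. They were Cyp39a1, an oxysterol hydroxylase of bile acid synthesis (-1.29 ± 0.27, adjusted p = 0.0126; 1 of 29 genes), Cyp3a11, a drug-metabolising P450 (-0.35 ± 0.09; 1 of 30), Aass, the first enzyme of lysine breakdown (-0.90 ± 0.17; 1 of 28), the glutathione transferase gene Gstp1 (-0.25 ± 0.07; 1 of 17 male-biased genes), Acot1, an acyl-CoA thioesterase (-1.56 ± 0.34; 1 of 27 lipid droplet and oxidation genes lower, with Cidea higher) and Tm7sf2, a sterol reductase (0.43 ± 0.11, higher, 1 of 20 cholesterol synthesis genes). None of these 6 passed without old replicate 3. The cholesterol synthesis list turned on that array, with a median of 0.30 and 4 of 20 negative signs with it, and a median of 0.94 and 0 negative signs without it. The list scores above untreated liver were 0.12, 0.49 and -1.47 in old and -0.06, -0.04 and -1.19 in young livers, so replicate 3 was low at both ages. Amino acid and urea genes had a median of -0.43, and -0.07 without old replicate 3. Heat shock genes had 1 of 16 lower (Hspe1, the mitochondrial co-chaperonin, -0.61 ± 0.11, adjusted p = 0.00551), but 15 had a negative sign and the old arrays lay wholly below the young arrays for 12 of 16, against 6.52% of all genes. Antioxidant genes had 0 of 20 called and a median of -0.43 (Gpx1 -0.41 ± 0.18, Gstm1 -0.43 ± 0.14). Unfolded protein response (0 of 27, median 0.11) and ribosome biogenesis genes (0 of 31, median 0.06) did not pass either.

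Markers of other cells of the liver, which a piece of tissue also holds, passed in 0 cases in the lists of B and plasma cells (21 genes), T and NK cells (24), macrophages and Kupffer cells (25), class II antigen presentation (15), neutrophils (16), stellate cells (27), endothelium (21), bile duct (15) and erythroid cells (16). With 2.01% called over all genes, lists of this size would hold few calls, so nothing is read from these counts of 0. In bulk tissue, fewer cells of a type and less RNA per cell cannot be told apart. B and plasma cell markers had 19 of 21 positive signs (median 0.21), with a mean level of 7.59 to 7.74 in old and 7.32 to 7.42 in young livers. Ighm, the IgM heavy chain, was at 10.85, 10.71 and 9.91 in old and 8.98, 8.77 and 8.50 in young livers, without overlap but short of the threshold (1.74 ± 0.57, adjusted p = 0.113). Macrophage markers had 19 of 25 negative signs (median -0.21), with mean levels of 8.48 to 8.98 in old and 8.73 to 9.22 in young livers. Endothelial markers were at 8.31 to 8.51 in old and 8.59 to 8.63 in young livers. The score of the 16 neutrophil markers above untreated livers was -0.07, -0.07 and 0.67 in old and 0.66, 0.69 and 0.12 in young livers, so the ages overlapped (median difference 0.06). The part of these cells in the falls of cell cycle genes was not tested. Adipose (0 of 8), pancreas (0 of 10) and muscle (0 of 13) markers did not pass, beside 2.01% called over all genes. Adipose markers had mean levels of 8.86 to 9.84 in old and 8.65 to 9.03 in young livers.

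Outside the cell cycle, old replicate 3 stood apart from its group in further genes. The 6 genes with the widest old range, among genes whose young arrays spanned under 0.5 log2, are given as a description. The hepatic uptake transporter gene Slco1b2 was at 12.47, 12.58 and 6.45 in old livers, beside 12.18 to 12.54 in young livers, and at 6.40 in old 24 h replicate 1. The estrogen sulfotransferase gene Sult1e1 was at 6.80, 6.89 and 12.78, beside 6.91 to 7.26 in young livers, and at 13.03 in old 24 h replicate 1. Fam47e (5.76), the aldo-keto reductase gene Akr1c20 (5.98) and Dpys, of pyrimidine breakdown (6.64), were low and the small GTPase gene Rab30 (12.45) was high in old replicate 3 alone of the 6 arrays. None passed (adjusted p from 0.413 to 0.503) and the spread within the old group was wider than each difference.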

How the data were processed

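The authors deposited log2 RMA signals for 45101 probe sets on 35 arrays, with RMA named per the submitters' processing notes; array medians were 7.18 to 7.30. RMA makes array distributions alike, so differences are relative to most genes, and the number of arrays limits the precision. In the platform annotation 34945 had 1 symbol and 932 several, and 9211 (controls included) were not listed; 9010 genes had several probe sets, and the one with the highest mean was used. A model with 1 mean per group was fitted to the 35 arrays together (limma 3.58.1, R 4.3.3). It had 21 residual and 3.29 prior degrees of freedom. A check on simulated data gave each gene 1 spread, shared by all groups. That check could not show whether the pooled SE holds for the old 38 h group, whose spread was wider. Named genes were the 12 largest non-overlapping rises and falls, up to 4 passing members of each of 48 lists (or the 2 brightest), a panel of 22 genes, 4 per direction for each difference of age differences, and 6 genes by spread; 1 of the largest falls is not reported here. The comparison, lists and panel were chosen with earlier results of these data known. Deviations of same-numbered old and young arrays from their group means had r = -0.25, -0.15 and -0.27, and those of different numbers -0.25 to 0.32. With 3 arrays a group this cannot tell whether same-numbered arrays were handled together. The main fit did not pair them. Alternatives changed the probe set, filter, scaling, prior, weights, arrays and replicate block. Promoters are RefSeq windows (GRCm38.p6). Figures used matplotlib 3.10.9 in Python 3.11.15.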

Additional observations from a re-analysis of the deposited data

Results flagged for a closer look

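The age difference at 38 h departed from that of untreated livers for 26 genes and from that at 24 h for 67 genes, each by limma's test of the difference of differences. Among the genes lower in old livers at 38 h, the departure from untreated livers was -2.87 for Nuf2, -2.68 for Dck and -2.54 for Ccne2. Among the higher genes it was 1.87 for Nr1d1, 0.71 for Gmppa, a subunit of GDP-mannose synthesis control, and 0.68 for Cage1. The age difference of Gmppa at 38 h turned from 0.51 to -0.04 (adjusted p = 0.922) with its probe set of largest variance. For Lcn2, the iron-binding acute phase protein lipocalin 2, it was -3.18: untreated old livers were higher by 3.14 ± 0.46, while at 38 h the ages differed by -0.04 ± 0.46. Wdfy1 departed by 0.93, with -0.89 ± 0.13 in untreated livers and 0.04 ± 0.13 at 38 h.

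Against 24 h, Nr1d1 departed by 2.25 and Cebpa by 1.2, with age differences of -0.85 and -0.76 at 24 h and 1.40 and 0.43 at 38 h. Egln3, a hypoxia-regulated prolyl hydroxylase, departed by 1.48 and Agxt, of glyoxylate metabolism, by 1.45. Otud1 (-3.19), Serpinb6b (-3.11), Rhpn2 (-2.40) and the RNA host gene Snhg3 (-2.21) departed downward. Otud1 was at 6.90, 6.99 and 7.22 in old and 9.27, 9.17 and 7.34 in young livers at 38 h, and Serpinb6b at 6.36, 6.16 and 7.77 against 8.59, 8.64 and 6.2. In both genes young replicate 3 stood apart from young replicates 1 and 2.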

How the results depend on the processing

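The count of 366 was 0 with limma fitted to the 6 arrays alone (1366 at an unadjusted p under 0.05), 123 with untreated and PH arrays only, 233 with young replicates 1 and 2 averaged and 143 with old 38 h replicate 3 and old 24 h replicate 1 left out; the last 2 settings were chosen after seeing the data. Leaving out each array in turn gave 49 to 678 genes. S phase members called (30) fell to 13 with array weights, 0 on the 6 arrays, 13 with untreated and PH arrays and 8 without the 2 outlying arrays, and ranged from 3 to 39 over arrays left out. Mitosis members called (39) fell to 25 without dim genes, 8 with array weights, 0 on the 6 arrays, 11 with untreated and PH arrays and 4 without the 2 outlying arrays, and ranged from 1 to 68.

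The count of 26 departures from untreated livers was 5 with the probe set of largest variance, 3 without dim genes, 49 with quantile normalization repeated, 17 with a trended robust prior, 111 with array weights, 0 on the arrays compared only, 3 with untreated and PH arrays, 8 with young replicates averaged and 40 without the outlying arrays. Leaving out arrays gave 3 (old 38 h replicate 3) to 289 (old 38 h replicate 1), with 94 without old 38 h replicate 2, 10 and 9 without young 38 h replicates 2 and 3, 10, 5 and 4 without young untreated replicates 1, 2 and 3, and 4 without old untreated replicate 2. The count of 67 departures from 24 h was 104 with each probe set tested, 5167 with array weights, 0 on the arrays compared only, 2 with untreated and PH arrays, 2 with young replicates averaged and 682 without the outlying arrays. Leaving out arrays gave 2 (young 38 h replicate 1 or 2) to 1270 (old 38 h replicate 3), with 181 without young 38 h replicate 3, 16 and 9 without young 24 h replicates 2 and 3, and 8 and 439 without old 24 h replicates 2 and 3. Departures from 48 h numbered 1 with the probe set of largest variance, 32 with array weights, 1 without the outlying arrays, and 0 to 91 over arrays left out (91, 9 and 3 without old replicates 1 and 2 and young replicate 1).

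With the replicate number as a block, 319 genes were called at 38 h and 5 departed from untreated livers; with the block on the arrays compared only, a setting added after seeing the data, limma called 0 genes at 38 h (1006 at an unadjusted p under 0.05), 0 departures from untreated livers or from 24 h, and 0 S phase and 0 mitosis members. Gmppa reversed with the probe set of largest variance (-0.04, adjusted p = 0.922). Of 62 named genes that passed, 44 missed the threshold without old replicate 3 and 38 without young replicate 3. The cause of these changes was not tested.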

Other observations

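Besides the 45 shared genes, 4 genes passed at 38 h without old replicate 3 only, and they are named here after their values were seen. All were higher in old replicates 1 and 2 than in the young arrays. The inter-alpha-trypsin inhibitor gene Itih1 was at 13.01, 13.19 and 12.38 in old and 12.30, 12.31 and 12.63 in young livers (0.69 without old replicate 3, adjusted p = 0.0326). Gna14, a G protein alpha subunit gene, was at 7.93, 8.0 and 6.89 against 6.70, 6.92 and 7.06 (1.07, adjusted p = 0.0369). Tshz2 (0.99, adjusted p = 0.0264) and Calml4 (0.69, adjusted p = 0.0326) followed the same order of arrays. With all 6 arrays their differences were 0.44, 0.71, 0.68 and 0.37 and none passed.

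Young replicates 1 and 2 differed from young replicate 3 in genes outside the cell cycle. Ly6d was at 11.70 and 11.75 in young replicates 1 and 2 and at 9.61 in replicate 3, beside 9.23, 9.73 and 11.45 in old livers. Krt8, a keratin of hepatocytes and bile ducts, was at 13.78 and 13.71 against 12.93 in young livers, beside 12.97, 12.61 and 14.22 in old livers. The early response score was 0.54, 0.59 and -0.33 in young and -0.13, -0.08 and 0.78 in old livers. In these genes old replicate 3 lay near young replicates 1 and 2, and young replicate 3 near old replicates 1 and 2.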
